A study of Mus musculus with 4 samples.

Results

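Microglia of the mouse hippocampus and sensory cortex that carried surface markers of the resting state and at most 1 gene of a cytokine or interferon programme are described here. They were selected on their own measured transcripts, in 4 single-cell RNA libraries. Of 44912 barcodes kept in all, 9036 passed a microglial gate and 1138 of those, or 12.6%, passed the second gate that defines these cells. The hippocampal libraries gave 349 members in the library titled DOCA-salt and 363 in the library titled sham, and the cortical libraries gave 185 and 241.

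Wild-type mice received deoxycorticosterone acetate with salt (DOCA-salt), a mineralocorticoid model of high blood pressure, or a sham treatment, and the labels give 3 mice per group. Each tissue and treatment is 1 library, made with a SeekOne droplet kit for the 3' ends of transcripts, and the labels do not say whether the mice of a group were pooled or how long treatment lasted. Age, sex and strain are not given in the sources used here. With 1 library per group there is no replicate, so no comparison was tested and no p-value is given; the bracketed ranges are exact 95% intervals that cover counting error only, not the spread between mice. The treatment field of 2 of the 4 records, those titled cortex DOCA-salt and hippocampus sham, contradicts the title, and in all 4 the field follows the tissue. Groups were taken from the titles; if the field were right instead, neither comparison within a tissue would be one of treatment.

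Microglia are the resident macrophages of brain tissue. In the homeostatic state they survey their surroundings with fine processes and express the purine receptor P2ry12, the membrane protein Tmem119, the fractalkine receptor Cx3cr1 and the lectin Siglech, under the control of TGF-beta and colony stimulating factor 1 signals. On activation they can turn on cytokine genes, interferon-stimulated genes or the disease-associated programme set off by the lipid receptor Trem2, and the same programmes are known to be switched on in part by enzymatic tissue dissociation.

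The microglial gate asked for a transcript of at least 5 of 8 genes (P2ry12, Tmem119, Cx3cr1, Csf1r, Selplg, Siglech, Gpr34 and Fcrls) and at most 2 of 7 genes of other cells (Mog, Mag, Aqp4, Gja1, Cldn5, Flt1 and Mrc1), in barcodes of 300 or more genes with no more than 20% of counts from mitochondrial genes. A member then had to hold transcripts of at most 1 of 6 cytokine-programme genes (Il1a, Il1b, Gpr84, Tnf, Osm and Bcl2a1b), at most 1 of 7 interferon genes (Ifit1, Ifit2, Ifit3, Isg15, Cxcl10, Rsad2 and Ifih1) and fewer than 3 disease-associated genes (Cst7, Lpl, Itgax, Spp1 and Gpnmb). The levels of these genes in the members were set by the choice and are not results. Most gated microglia exceeded the cytokine limit: 81.0%, 73.5%, 88.4% and 85.5% of them had 2 or more of the 6 genes in the hippocampal DOCA-salt and sham and then the cortical DOCA-salt and sham libraries, the order used for every set of 4 values below. The interferon limit was exceeded by 42.7%, 59.5%, 37.4% and 42.6% of gated microglia, cells over both limits included. The disease-associated limit removed only 6 cells. The members were not free of these genes: 57.6%, 48.2%, 59.5% and 57.3% of them held 1 cytokine-programme gene, and 30.9%, 36.1%, 28.6% and 32.4% held 1 interferon gene.

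The label was checked against 10 core microglial genes that the gate did not use, among them the complement genes C1qa, C1qb and C1qc, the protease Ctss, the adaptors Tyrobp and Fcer1g, Trem2, Ly86 and Laptm5. Their summed share of a cell's unique molecular identifiers (UMIs, one count per captured transcript) had a median of 4.22%, 3.34%, 3.82% and 3.25% in the members and of 4.16%, 3.96%, 3.72% and 3.73% in the other gated microglia. In oligodendrocytes of the same libraries the median was 0.124%, 0.101%, 0.113% and 0.0914%. In macrophages of the brain's borders, few at 12, 18, 8 and 17 cells, it was 2.37%, 1.97%, 2.15% and 1.31%. The share thus parts microglia from oligodendrocytes but does not by itself part them from border macrophages. Within the members the share was split. At least 2% was reached by 261, 245, 139 and 166 cells, 811 in all or 71.3%, while 251 cells, or 22.1%, stayed below 1%. Of the other gated microglia only 74 cells were below 1%.

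The 251 cells low in core microglial RNA go against the name of the gate. They were deep, with median UMI counts of 7654, 8233, 6600 and 5883, and they held 40.9%, 55.3%, 36.4% and 39.99% of all UMIs of the members. Their gate markers were scattered: at exactly 5 of 8 markers, just inside the gate, 35.6%, 33.3%, 37.9% and 36.6% of members had at least 2% core RNA, against 97.1%, 97.5%, 98.3% and 97.3% at 8 of 8. Just outside the gate, at 4 markers, 15.9%, 7.63%, 13.6% and 15.9% did. Single markers were also found in cells that should lack them, with a P2ry12 transcript in 19.4%, 18.1%, 16.95% and 16.7% of oligodendrocytes. Members with at least 2% core RNA had one in 96.9%, 94.7%, 94.96% and 94.6%. Oligodendrocytes were allowed at most 2 of the 8 markers and members needed 5, so both sets of shares are partly set by the gates. Expression is therefore given below for the 811 members with at least 2%, called microglial-RNA members, and the value over all members is set beside it where the results differ. This split was chosen after the data had been seen, and the levels of the 10 core genes in it are partly set by the choice.

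**Figure D1:**
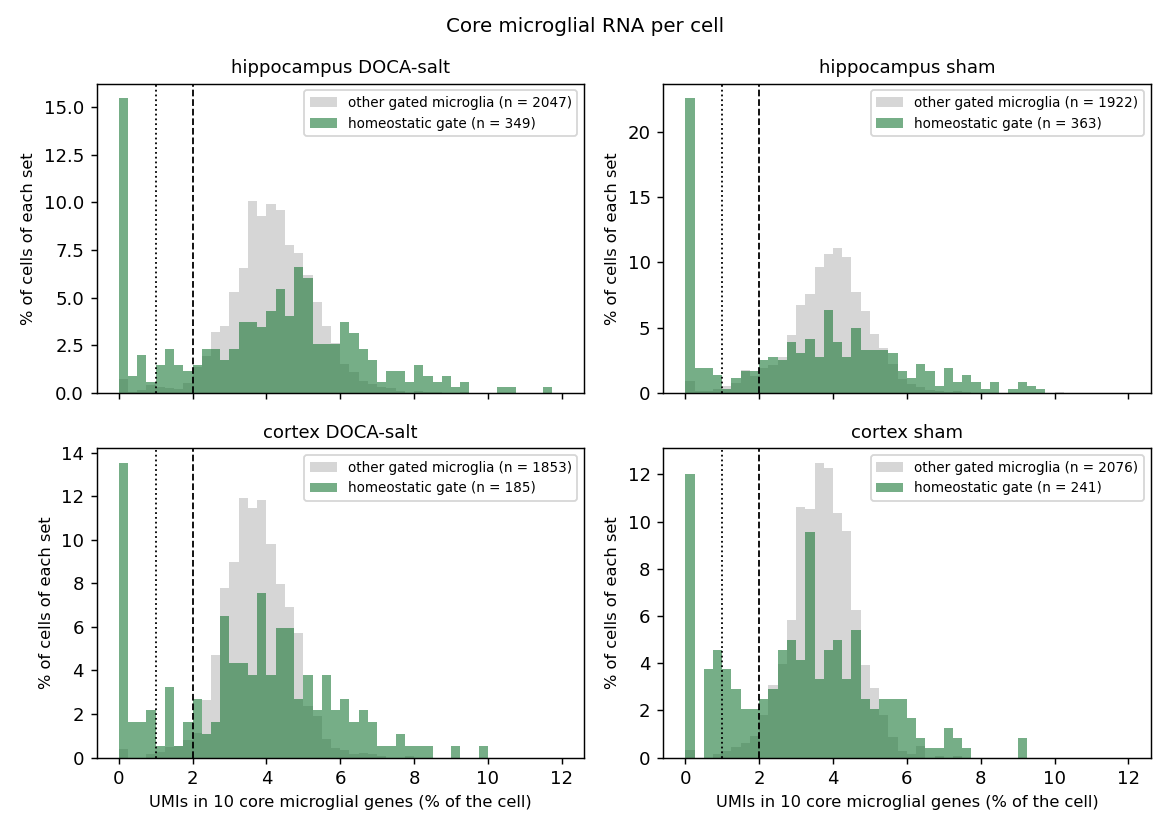
Distribution of the summed share of UMIs in 10 core microglial genes per cell (x axis, % of the cell's UMIs) as % of cells of each set (y axis) in the 4 libraries; green, cells that passed the homeostatic gate; grey, the other gated microglia; dotted and dashed lines, 1% and 2%. The green cells form a peak near 0 beside a broad peak over the grey one, and 251 of the 1138 lie below 1%.

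RNA of other cells marked the same split. Summed over the 11 genes of the myelin list, all members held 30535, 43023, 13005 and 25532 UMIs per 1000000 (CPM, of UMIs summed over cells), and microglial-RNA members 3942, 8312, 3288 and 5318, set against 3805, 5993, 3133 and 3391 in the other gated microglia with 2% core RNA. Astrocyte-list RNA, with Slc1a3 among its 14 genes, was at 4876, 1733, 15795 and 10192 CPM over all members and at 3570, 781, 5335 and 3193 CPM in microglial-RNA members. Hippocampus sham stood apart through the choroid plexus transcript Ttr, at 32454 CPM over all members and 4502 CPM in microglial-RNA members against 40.6, 11.1 and 21.3 CPM in the microglial-RNA members of the other libraries. Ttr was at 6626 CPM in oligodendrocytes and 3979 CPM in the other microglia of that library too. The neutrophil genes S100a8 and S100a9 were at 450 and 556 CPM over all members of hippocampus DOCA-salt and at most at 6.62 and 9.93 CPM in the other libraries, and at 55.9 and 69.8 CPM in its microglial-RNA members.

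The members were shallow cells. Their median UMI count was 3111, 3425, 2408 and 1929, against 6236, 5551, 5989 and 5865.5 in the other gated microglia, and 39.5%, 35.3%, 43.8% and 51.5% of them held fewer than 2000 UMIs, against 2.83%, 3.49%, 4.37% and 4.72% of the others. The microglial-RNA members had medians of 2285, 2090, 2049 and 1860 UMIs. A cell with few UMIs is less likely to show 2 genes of any list, and the share that passed the state gate among gated microglia with at least 2% core RNA dropped with depth in every library. From 500 to under 1000 UMIs it was 76.5%, 83.6%, 74.4% and 76.6%. From 2000 to under 4000 UMIs it was 25.2%, 18.9%, 14.4% and 15.3%, and from 4000 to under 8000 UMIs 5.74%, 4.74%, 2.51% and 2.53%. At 8000 UMIs or more, 0 of 323 cells passed in cortex DOCA-salt, which allows a share of up to 1.14% by the exact interval.

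**Figure D2:**
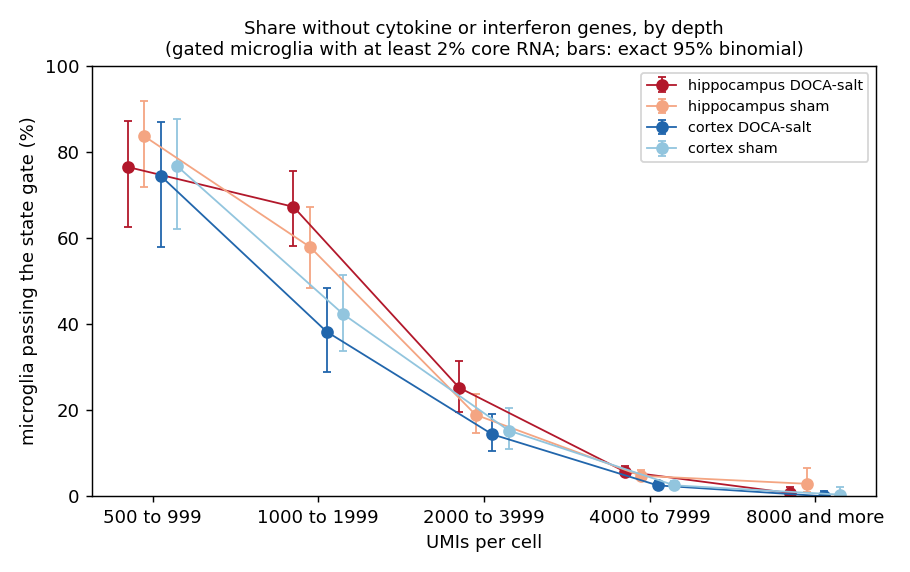
Share of gated microglia with at least 2% core RNA that passed the gate on cytokine and interferon genes (y axis, %) by UMIs per cell (x axis, 5 bins) in the 4 libraries; points are shares, bars exact 95% binomial intervals for counting error. All 4 lines drop from over 70% below 1000 UMIs to under 3% at 8000 UMIs and more.

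As deposited, members made up 14.6% (13.2 to 16.0), 15.9% (14.4 to 17.5), 9.08% (7.87 to 10.4) and 10.4% (9.19 to 11.7) of gated microglia. The ratio of DOCA-salt over sham was 0.917 (0.789 to 1.06) in hippocampus and 0.873 (0.717 to 1.06) in cortex, so both intervals for counting error include 1. The share was higher in hippocampus than in cortex, by 1.53 (1.29 to 1.81) in the sham and 1.60 (1.34 to 1.93) in the DOCA-salt libraries. Restricted to microglial-RNA cells, the DOCA-salt over sham ratios were 0.972 (0.814 to 1.16) and 0.942 (0.746 to 1.19), and hippocampus over cortex 1.57 (1.28 to 1.92) and 1.62 (1.31 to 2.002).

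At equal depth the order was another one. When each gated cell with 2% core RNA was thinned to 2000 UMIs, leaving out shallower cells, 28.1% (26.2 to 30.1) of 2085, 23.05% (21.2 to 25.02) of 1883, 16.4% (14.7 to 18.2) of 1802 and 20.6% (18.9 to 22.5) of 2008 cells passed the state gate, set against 6.81%, 6.80%, 3.94% and 3.74% of the same cells unthinned. The DOCA-salt over sham ratio was then 1.22 (1.08 to 1.38) in hippocampus and 0.797 (0.684 to 0.927) in cortex. Hippocampus over cortex was 1.12 (0.975 to 1.28) in sham and 1.71 (1.49 to 1.97) in DOCA-salt. Unthinned, the shares of these same cells were nearly level within each tissue and gave no clear direction. Why the ratios differed after thinning was not tested.

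Around the limit on cytokine genes, the level of the chemokine Ccl4, which the gate did not use, was read. Microglial-RNA members with 0 of the 6 genes held it at 556, 830, 725 and 1917 CPM. Those with 1 gene, just inside the limit, held it at 1400, 1540, 1597 and 1861 CPM, and cells just outside, with 2 genes but otherwise the same, at 1330, 2048, 2015 and 2758 CPM. The level was higher at each step in hippocampus sham and cortex DOCA-salt, but not from 1 to 2 genes in hippocampus DOCA-salt nor from 0 to 1 gene in cortex sham. Over all members, cells low in core RNA included, it was at 357, 376, 481 and 803 CPM with 0 genes and at 1043, 1117, 1212 and 1496 CPM with 1. These values describe where the limit fell and carry no test.

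To see what the members shared beside the gate genes, microglial-RNA members with at least 2000 UMIs (142, 128, 71 and 75 cells) were thinned to 2000 UMIs and set against 1000 other gated microglia of the same library treated alike. Because the members were chosen for low state genes, genes of the same programmes can be lower through the choice, and the values are a description. Among 5999 genes, 44 (0.733%) were at least 1.5-fold lower in members in all 4 libraries and 8 (0.133%) at least 1.5-fold higher. Within single libraries 11.5%, 11.8%, 20.7% and 16.7% of genes were lower by that much and 6%, 7.6%, 10.7% and 11.8% higher. The cortical libraries had fewer members, so counting error has a larger part in their shares.

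Ifnb1, which encodes interferon beta, the signal upstream of the interferon genes of the gate, was at 31.7, 23.4, 49.3 and 20 CPM in members against 276, 537, 323 and 216 CPM in the other microglia. Ratios were 0.115, 0.0437, 0.153 and 0.0928. Secreted signals were lower as well: of 11 chemokines 5 were at least 1.5-fold lower in every library, and the list's median log2 ratio was -0.97, -1.20, -0.79 and -1.43. Ccl4 was at 1412, 1586, 1099 and 1727 CPM in members against 3374, 5154, 4176 and 4756 CPM, and Ccl3, which acts on the same receptor family, had ratios of 0.512, 0.350, 0.377 and 0.371. Ccl12, a monocyte attractant, had ratios of 0.482, 0.410, 0.533 and 0.258.

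Of 19 inflammatory and NF-kB genes outside the gate, 5 were lower by 1.5-fold in all libraries, with list medians of -0.60, -0.44, -0.72 and -0.58. Nfkbia, the inhibitor that NF-kB induces against itself, was at 2592, 2363, 1937 and 1900 CPM against 4196, 3814, 3752 and 3012 CPM, so members kept over 50% of the level of the others. Tnfaip3, another brake on the pathway, had ratios of 0.569, 0.524, 0.517 and 0.617. The stress genes Ppp1r15a, which restarts protein synthesis after stress, and Gadd45b had ratios of 0.439, 0.488, 0.490 and 0.481 and of 0.378, 0.480, 0.155 and 0.459.

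Immediate early genes, the fast transcription factors induced by many stimuli including handling of tissue, were still abundant in the members. None of the 20 was 1.5-fold lower in all libraries, and the median was -0.33, -0.27, -0.39 and -0.33. Fos was at 5507, 5488, 4197 and 5487 CPM in members and at 6315, 6740, 4581 and 5812 CPM in the others. Egr1 had ratios of 0.646, 0.760, 0.713 and 0.708. Transcripts of the immediate early programme were thus present in members of all 4 libraries.

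Identity and lysosome genes of microglia differed little between the sets. The median over 22 identity genes outside the gate was 0.12, -0.05, 0.14 and 0.04 and over 20 lysosome genes 0.12, 0.07, 0.18 and 0.06, and no gene of either list was 1.5-fold lower or higher in all 4 libraries. Sall1, a transcription factor that defines microglia, had ratios of 1.05, 0.803, 0.860 and 0.940. Over 12 interferon genes outside the gate the median was -0.24, -0.08, -0.26 and 0.08, with 3, 2, 5 and 4 of them at least 1.5-fold lower and 1 lower in all 4 libraries.

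Apoe, the apolipoprotein that carries lipid between brain cells, was higher in members in all 4 libraries, at 2687, 3148, 5845 and 3967 CPM against 1584, 1190, 2393 and 1738 CPM. Pf4, a chemokine of macrophages at the brain's borders, was higher with it, by 2.38, 8.50, 16.0 and 5.37. Border macrophages share many microglial genes, and 6 of their markers were read at full depth, before thinning, in cells with at least 2000 UMIs. Cells with at least 2 of the 6 made up 7 of 142, 6 of 128, 5 of 71 and 3 of 75 members. These are 4.93%, 4.69%, 7.04% and 4%, against 1.08%, 0.798%, 0.693% and 0.673% of the others. Without those cells the Apoe ratio, in a thinning of its own, was 1.11 (0.995 to 1.23), 1.25 (1.11 to 1.41), 1.28 (1.15 to 1.42) and 1.23 (1.08 to 1.39), where it had been 1.77, 2.74, 2.34 and 2.42 with them.

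**Figure D3:**
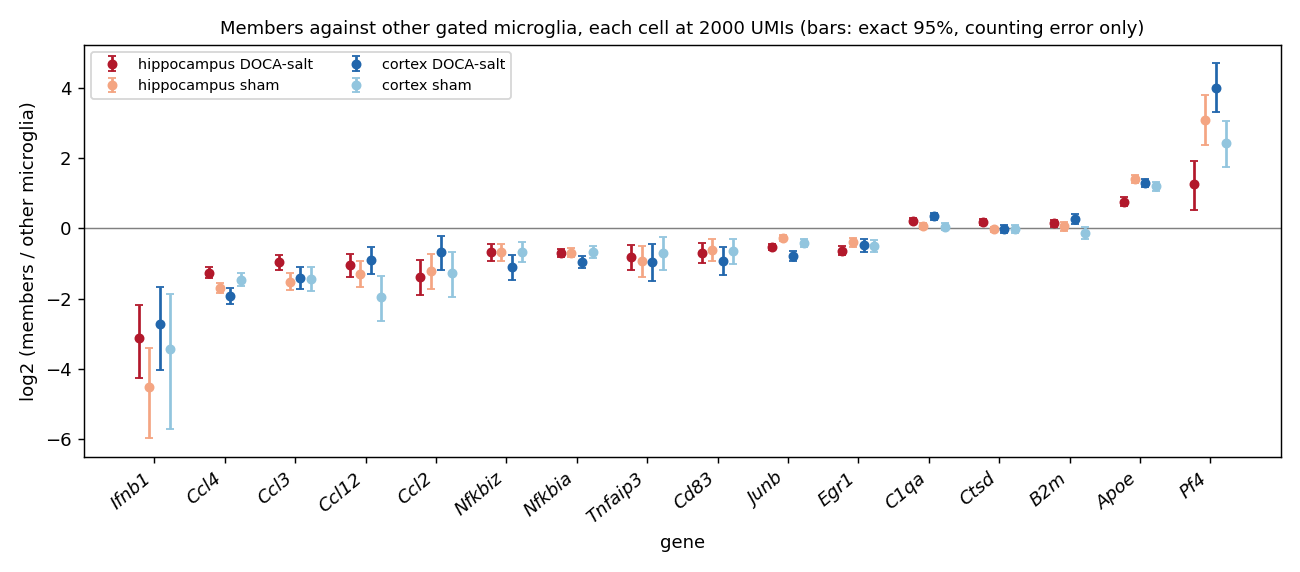
Log2 ratio of microglial-RNA members over other gated microglia (y axis) for 16 genes (x axis), each cell thinned to 2000 UMIs, in the 4 libraries; bars are exact 95% intervals for counting error. Ifnb1 and the chemokines lie below 0 in all 4 libraries, C1qa, Ctsd and B2m near 0, and Apoe and Pf4 above 0.

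Between DOCA-salt and sham, 39 of 1966 genes measured with at least 200 UMIs over the 4 libraries (1.98%) were at least 1.5-fold higher and 65 (3.31%) at least 1.5-fold lower in microglial-RNA members of the hippocampus. In cortex 70 (3.56%) were higher and 123 (6.26%) lower. The cortical microglial-RNA members held fewer UMIs, 361006 in DOCA-salt and 422492 in sham, against 787613 and 706840 in hippocampus. With fewer UMIs more genes pass a fixed fold through counting error. The counts therefore do not show that cortex differed more than hippocampus. Over both tissues 12 (0.61%) were higher in each and 28 (1.42%) lower in each. The median gene differed by 0.01 in hippocampus and -0.03 in cortex on the log2 scale. Over all members, of 4086 genes, 304 (7.44%) and 226 (5.53%) were higher and lower in hippocampus and 211 (5.16%) and 371 (9.08%) in cortex, with 74 (1.81%) higher and 73 (1.79%) lower in both.

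Of the genes named by rule as higher in DOCA-salt in both tissues, 2 membrane transporters had the largest ratios. Slc1a3, the glutamate and aspartate transporter GLAST of astrocytes (GRCm38 chr15:8634124-8710764, minus strand), was at 2153 CPM in hippocampus DOCA-salt and 154 CPM in hippocampus sham, a ratio of 13.96 (11.5 to 17.1). In cortex it was at 1801 and 357 CPM, a ratio of 5.04 (4.21 to 6.05). Both DOCA-salt libraries were high and both sham libraries low. Over all members the ratios were 10.9 and 2.25, with the sham cortex at 873 CPM. Outside that rule, the predicted gene Gm8797 had larger ratios, of 24.9 (16.4 to 39.6) and 38.3 (19.2 to 89.7), and the predicted gene Gm21860 had 12.1 (6.75 to 23.9) and 13.3 (5.40 to 42.7). In the other direction Ttr, in hippocampus alone, was 111-fold (78.3 to 162) lower in DOCA-salt.

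Because astrocytes express Slc1a3, its level was read beside Slc1a2, the other glutamate transporter of astrocytes, which was at 188, 86.3, 399 and 336 CPM in microglial-RNA members. Astrocytes held 0.484, 0.504, 0.567 and 0.574 Slc1a3 UMIs for each Slc1a2 UMI, and oligodendrocytes 0.545, 0.551, 0.578 and 0.583. Both genes were among the markers that gated astrocytes, so the astrocyte values here and below are partly set by that choice. They were not among the markers that gated oligodendrocytes. Microglial-RNA members held 11.5, 1.79, 4.51 and 1.06. Other astrocyte transcripts were higher in hippocampus DOCA-salt too: all 9 measured genes of that list, Slc1a3 and Slc1a2 among them, were at least 1.5-fold higher there, with Clu at 1.87 (1.43 to 2.46), while in cortex only Slc1a3 was. The members' ratio was above that of astrocytes in all 4 libraries and furthest above it in both DOCA-salt libraries. Within astrocytes Slc1a3 itself differed in the other direction, with DOCA-salt over sham ratios of 0.873 (0.854 to 0.893) and 0.925 (0.915 to 0.935). In oligodendrocytes its ratios were 1.55 in hippocampus and 0.965 in cortex, and in endothelial cells 1.54 and 1.21. Slc1a3 was thus higher in hippocampus DOCA-salt in these classes too, by less than in the members. The other gated microglia gave 11.7 and 7.10, so the difference was not restricted to cells low in cytokine genes.

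Slc15a2, a proton-coupled transporter of small peptides (chr16:36750177-36784962, minus strand), was counted 142 and 10 times in the hippocampal members, or at 180 and 14.1 CPM, a ratio of 12.7 (6.73 to 27.2). In cortex it was counted 42 and 8 times, at 116 and 18.9 CPM, a ratio of 6.14 (2.85 to 15.2). It was higher in other classes of the DOCA-salt libraries too, with ratios of 4.397 and 2.02 in oligodendrocytes, 2.09 and 1.76 in astrocytes, 4.92 and 2.72 in endothelial cells, and 28.0 and 13.4 in the other gated microglia.

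Arsb, the lysosomal arylsulfatase B that removes sulfate from dermatan and chondroitin chains (chr13:93771630-93943016), was at 547 and 147 CPM in hippocampus, a ratio of 3.72 (3.00 to 4.65), and at 432 and 109 CPM in cortex, a ratio of 3.97 (2.84 to 5.64). It differed less in oligodendrocytes, at 41.9 and 32.6 CPM in hippocampus and 37.4 and 33.6 CPM in cortex. Lsp1, an actin-binding protein of leukocytes, was at 145 and 50.9 CPM in hippocampus (2.84; 1.94 to 4.26) and at 125 and 33.1 CPM in cortex (3.76; 2.03 to 7.42). Rnaset2a, a lysosomal ribonuclease whose reads may be split with its near-identical copy, was at 773 and 392 CPM in hippocampus (1.97; 1.71 to 2.28) and at 753 and 391 CPM in cortex (1.93; 1.58 to 2.36). For these 3 genes the DOCA-salt library was the higher one in both tissues. So it was in the other gated microglia, with ratios of 2.71 and 3.70 for Arsb, 2.78 and 2.45 for Lsp1 and 1.73 and 1.45 for Rnaset2a. Lsp1 had ratios of 3.08 and 2.73 in oligodendrocytes and of 4.67 and 2.97 in astrocytes, at levels of at most 11.1 CPM in either class. Rnaset2a had ratios of 1.58 and 1.15 in oligodendrocytes and of 1.61 and 1.23 in astrocytes.

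Smaller differences in the same direction in both tissues were those of Arhgap31, a regulator of the GTPases Rac and Cdc42, with ratios of 1.88 (1.38 to 2.61) and 2.18 (1.36 to 3.55), and of Ltc4s, the microglia-enriched leukotriene C4 synthase, with 1.38 (1.20 to 1.58) and 1.39 (1.16 to 1.68). Klk8, a secreted serine protease, had 1.505 (1.10 to 2.06) and 2.22 (1.38 to 3.64).

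Heat shock genes were lower in the DOCA-salt libraries of both tissues. Their products are chaperones that refold or hold damaged proteins, and some of the genes are induced by heat shock factor 1 under protein stress. The list also holds constitutive chaperones and 1 of the endoplasmic reticulum, Hspa5. Of the 13 genes of the list, all measured, 7 were at least 1.5-fold lower in hippocampus and 5 in cortex, and none was higher, where 3.31% and 6.26% of all genes were lower. The median log2 ratio was -0.59 and -0.54 in microglial-RNA members, -0.55 and -0.47 over all members, and -0.51 and -0.56 in the other gated microglia.

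The list holds the inducible chaperones Hspa1a and Hspa1b and the co-chaperone Hsph1, whose promoters are shown as those of stress-induced members, since heat shock factor 1 binds repeats of nGAAn. The sequences are RefSeq promoters of GRCm38.p6, of 300 bases from 250 before to 50 after the annotated start, 5′ to 3′ on the gene's strand, with capitals for the matches to GAANNTTC or TTCNNGAA, each of which reads the same on both strands and can overlap the other.
Hspa1a, chr17:34972107-34972406, minus strand: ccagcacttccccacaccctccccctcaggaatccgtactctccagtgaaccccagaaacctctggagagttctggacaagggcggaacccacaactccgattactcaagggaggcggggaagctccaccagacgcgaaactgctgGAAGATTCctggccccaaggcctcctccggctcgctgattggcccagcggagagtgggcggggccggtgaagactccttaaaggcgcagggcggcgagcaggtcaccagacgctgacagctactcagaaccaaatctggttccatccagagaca
Hspa1b, chr17:34959189-34959488, minus strand: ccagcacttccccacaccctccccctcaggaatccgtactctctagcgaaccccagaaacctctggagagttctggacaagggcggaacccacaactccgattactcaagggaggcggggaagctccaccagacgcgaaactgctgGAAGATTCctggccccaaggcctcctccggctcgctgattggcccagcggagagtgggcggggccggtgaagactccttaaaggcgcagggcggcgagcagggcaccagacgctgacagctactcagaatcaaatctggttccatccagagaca
Hsph1, chr5:149636266-149636565, minus strand: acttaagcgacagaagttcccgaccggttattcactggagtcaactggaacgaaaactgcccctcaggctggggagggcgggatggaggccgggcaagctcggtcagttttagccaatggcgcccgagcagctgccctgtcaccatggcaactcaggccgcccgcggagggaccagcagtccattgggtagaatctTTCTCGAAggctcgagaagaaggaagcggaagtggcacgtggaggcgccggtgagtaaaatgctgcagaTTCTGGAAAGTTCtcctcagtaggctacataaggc
Hspa1a and Hspa1b held 1 match each, at position -104 from the start, and Hsph1 held 3, the last 2 overlapping. Of the 13 listed genes 9 had a promoter in the set used here, and Hsp90ab1, Hspa8, Hsp90aa1 and Cryab were not among them. The 9 genes have 14 promoters, some of them overlapping. Of those, 8 (57.1%) held at least 1 match, as did 15.1% of all 32851 promoters of this length. A match is a description of the letters and not a bound site.

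Hspa1a was at 1059 and 1459 CPM in hippocampus and at 983 and 1449 CPM in cortex, which is 1.38-fold (1.26 to 1.51) and 1.47-fold (1.29 to 1.68) lower in DOCA-salt. Hspa1b was at 67.3 and 174 CPM in hippocampus and at 119 and 185 CPM in cortex, 2.59-fold (1.86 to 3.64) and 1.55-fold (1.05 to 2.30) lower. The coding sequences of both are nearly identical, so reads may be split between them and each value is uncertain. Hsph1 was at 54.6 and 122 CPM in hippocampus, 2.23-fold (1.53 to 3.29) lower, and at 77.6 and 111 CPM in cortex, 1.43-fold (0.880 to 2.38) lower, where the interval includes 1.

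The abundant chaperones followed. Hsp90ab1, the constitutive HSP90 that also holds steroid receptors ready to bind hormone, was at 1376 and 2452 CPM in hippocampus and at 1765 and 3060 CPM in cortex, 1.78-fold (1.65 to 1.92) and 1.73-fold (1.58 to 1.91) lower in DOCA-salt. Hspa8, the constitutive HSC70, was at 2000 and 3008 CPM and at 2174 and 3172 CPM, 1.504-fold (1.41 to 1.61) and 1.46-fold (1.33 to 1.59) lower. Hsp90aa1, the inducible HSP90, was at 1244 and 1983 CPM and at 1086 and 1373 CPM, 1.59-fold (1.47 to 1.73) and 1.26-fold (1.11 to 1.44) lower. Hspa5, the chaperone of the endoplasmic reticulum, was close to 1, at 1.19-fold (1.11 to 1.29) and 1.03-fold (0.928 to 1.15) lower.

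Hsp90ab1 was lower in other classes too. In oligodendrocytes it had DOCA-salt over sham ratios of 0.648 and 0.673, in astrocytes 0.802 and 0.739 and in endothelial cells 0.769 and 0.716, against 0.561 and 0.577 in the microglial-RNA members. Hspa1a, at 0.726 and 0.679 in the microglial-RNA members, was at 0.886 and 1.10 in oligodendrocytes, at 1.26 (1.19 to 1.33) and 0.835 in astrocytes and at 0.903 and 0.653 in endothelial cells, so it was not lower in every class. Cryab, a small heat shock protein abundant in myelinating cells, was 2.93-fold (2.50 to 3.44) and 1.79-fold (1.40 to 2.30) lower in members, where myelin RNA was lower as well, with 9 of the 10 measured myelin genes lower in hippocampus and 7 in cortex. The part of myelin RNA in the Cryab difference was not tested.

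**Figure D4:**
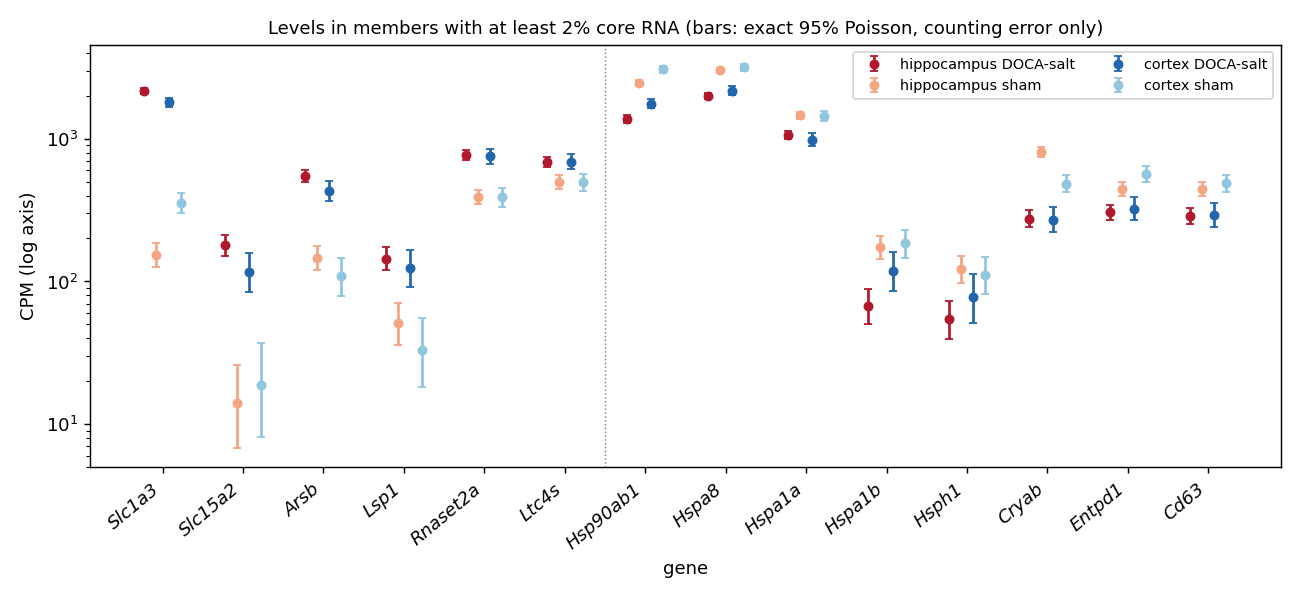
CPM (y axis, log scale) of 14 genes (x axis) in microglial-RNA members of the 4 libraries; points are levels, bars exact 95% Poisson intervals for counting error, and the dotted line parts genes higher from genes lower in DOCA-salt. Slc1a3 spans 154 to 2153 CPM, and Hsp90ab1 and Hspa8 lie lower in both DOCA-salt libraries than in both sham libraries.

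Other genes lower in both tissues encode signalling and surface proteins. Ccnd3, cyclin D3, was at 96.5 and 183 CPM in hippocampus (1.89-fold lower; 1.41 to 2.55) and at 55.4 and 180 CPM in cortex (3.25-fold; 1.96 to 5.61). Entpd1, the ectonucleotidase CD39 that breaks down extracellular ATP beside P2ry12, was at 305 and 443 CPM and at 324 and 566 CPM, 1.45-fold (1.22 to 1.73) and 1.75-fold (1.39 to 2.20) lower. Cd63, a tetraspanin of late endosomes, was 1.54-fold (1.29 to 1.83) and 1.67-fold (1.31 to 2.13) lower.

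Elmo1 and Dock4, which belong to families that activate Rac during engulfment and movement, were 1.41-fold (1.21 to 1.63) and 1.62-fold (1.31 to 2.02), and 1.49-fold (1.25 to 1.78) and 1.56-fold (1.20 to 2.03), lower. Stmn1, a microtubule regulator, was at 170 and 420 CPM and at 122 and 225 CPM, 2.47-fold (2.01 to 3.05) and 1.84-fold (1.28 to 2.70) lower. Itga6, the laminin receptor subunit, was 2.17-fold (1.57 to 3.03) lower in hippocampus, and 1.36-fold (0.859 to 2.19) in cortex.

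In cortex some genes were lower while hippocampus showed no such difference. Creb5, a transcription factor of the cAMP response family, was at 63.7 and 178 CPM in cortex, 2.79-fold (1.73 to 4.66) lower, and at 141 and 143 CPM in hippocampus. Cln8, a protein of endoplasmic reticulum export to lysosomes, was at 41.6 and 125 CPM in cortex, 3.02-fold (1.68 to 5.77) lower, and at 88.9 and 94.8 CPM in hippocampus. In the other cortical microglia the ratios were 1.01 and 0.813. The difference between tissues was not tested.

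Of 12 listed chemokines 6 were measured, with Ccl6 higher and Cxcl2 lower in hippocampus, 4 (Ccl2, Ccl6, Ccl12 and Cxcl2) higher in cortex, and medians of 0.30 and 0.88. Ccl12 was at 320 and 243 CPM in hippocampus (1.31; 1.08 to 1.61) and at 413 and 189 CPM in cortex (2.18; 1.65 to 2.90). Ccl6, a chemokine of resting myeloid cells, had ratios of 1.58 (1.14 to 2.22) and 1.90 (1.17 to 3.13). Ccl4 was lower in both, with 0.874 (0.797 to 0.958) and 0.706 (0.629 to 0.792). Cxcl2, a neutrophil attractant, was counted 43 and 65 times in hippocampus and 121 and 38 times in cortex, for ratios of 0.594 (0.394 to 0.886) and 3.73 (2.57 to 5.52). Ccl12, Ccl6 and Ccl4 thus had the same direction in both tissues and Cxcl2 opposite ones, with no test of the difference. Over all members 7 chemokines were measured, with 4 higher and 1 lower in hippocampus and 4 higher in cortex. The medians were 0.63 and 0.83.

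Border macrophage RNA was higher in the same cortical library. Summed over 9 genes of that list, none of which was at 0 in any library, it was at 571, 601, 1158 and 689 CPM in microglial-RNA members. The sum includes Mrc1, an other-cell marker of the gate, so it is partly set by the choice. When at most 1 of the 7 other-cell markers was allowed, the cortical chemokine median was -0.06 in place of 0.83 over all members, while Ccl12 was at 0.89 and Ccl6 at 1.56 on the log2 scale. Apoe, at 5922 and 4275 CPM in cortex (1.39; 1.30 to 1.48), was at -0.11 under that limit.

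The genes that define the homeostatic state outside the gate hardly differed. Of 22 identity genes 1, Lrba, was at least 1.5-fold higher and none lower in hippocampus, and none higher and 1, Entpd1, lower in cortex, with medians of -0.04 and -0.11. Cst3, cystatin C, was at 45479 and 47305 CPM in hippocampus and at 41825 and 40469 CPM in cortex. Of 8 genes of TGF-beta signalling, which maintains the state, none passed 1.5-fold in either tissue, and Tgfb1 itself had ratios of 1.17 (0.985 to 1.40) and 1.12 (0.882 to 1.43). Over all members the hippocampal identity median was 0.36 with 6 of 22 higher; cells below 1% core RNA held 55.3% of the UMIs in hippocampus sham and 40.9% in hippocampus DOCA-salt.

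Uptake and degradation genes differed by small amounts in microglial-RNA members. None of 14 genes of the TREM2, complement and uptake list passed 1.5-fold, with medians of 0.18 and 0.05. C3ar1, the receptor for complement fragment C3a, had ratios of 1.31 (1.07 to 1.61) and 1.29 (0.985 to 1.69), and C5ar1, the C5a receptor, 0.713 (0.526 to 0.964) and 0.806 (0.557 to 1.16). Of 19 lysosome genes only Cd63 was lower and none was higher. Among 8 MHC class I genes the median was 0.22 and 0.23. Psmb8 and Psme1, subunits of the immunoproteasome and its activator, had ratios of 1.48 (1.17 to 1.87) and 1.35 (0.937 to 1.96), and of 1.25 (0.981 to 1.60) and 1.74 (1.24 to 2.44). Over all members 4 of the 14 uptake genes and 5 of the 8 MHC class I genes were higher in hippocampus, with medians of 0.56 and 0.59. In cortex none and 1 were, with medians of 0.18 and 0.30. Of 20 lysosome genes measured over all members 2 were higher in hippocampus and none in cortex, and none was lower.

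Few inflammatory and stimulus genes left in the microglial-RNA members passed 1.5-fold, while more did over all members in hippocampus. The median over 13 NF-kB genes was 0.11 and -0.27 and over 17 immediate early genes 0.17 and -0.14, and the difference between the tissues was not tested. Of both lists Relb, an NF-kB subunit, and Nr4a1 alone passed, both lower in cortex, and none passed in hippocampus. Nr4a1, an orphan nuclear receptor that restrains inflammatory genes, was at 96.5 and 74.98 CPM in hippocampus (1.29; 0.894 to 1.86) and at 114 and 225 CPM in cortex (0.505; 0.341 to 0.736). Fos was at 5476 and 4881 CPM in hippocampus (1.12; 1.07 to 1.17) and at 4141 and 5304 CPM in cortex (0.781; 0.731 to 0.834). Nfkbia was higher in DOCA-salt in both, by 1.22 (1.15 to 1.31) and 1.15 (1.04 to 1.28). Over all members 5 of 15 NF-kB genes and 4 of 17 immediate early genes were higher in hippocampus and none lower, with medians of 0.48 and 0.54. In cortex 1 of the 15 was higher and 1 lower, and none of the 17 passed, with medians of -0.15 and 0.03. In hippocampus Nfkbia turned to -0.28 on the log2 scale when 0 of every state gene was allowed, and Nr4a1 to -0.11 when cells were thinned to 2000 UMIs before the gate.

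DOCA acts on the mineralocorticoid receptor, and corticosteroid-induced genes were listed for that reason. Of 9 measured, Mt2, a metallothionein, was at least 1.5-fold higher in hippocampus at 1.77 (1.15 to 2.78), and in cortex Errfi1 was higher and Tsc22d3 lower, with list medians of -0.01 and -0.14. Tsc22d3, the glucocorticoid-induced leucine zipper, was at 213 and 252 CPM in hippocampus (0.847; 0.682 to 1.05) and at 147 and 260 CPM in cortex (0.564; 0.398 to 0.789). Sgk1, the kinase that corticosteroids induce, was at 381 and 383 CPM (0.993; 0.840 to 1.18) and at 233 and 341 CPM (0.683; 0.515 to 0.900). Nr3c1, the glucocorticoid receptor, had ratios of 1.04 (0.814 to 1.33) and 0.711 (0.492 to 1.02). Both induced genes were lower in cortex and near 1 in hippocampus. Over all members 12 genes of the list were measured, with 3 higher and 1 lower in hippocampus and 2 lower in cortex. The medians were 0.26 and 0.03.

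The study's title names sympathetic activation, and adrenergic genes were read for that reason. Of 4 genes of that list with enough UMIs only Grk2, a kinase that desensitises adrenergic receptors, passed 1.5-fold, in cortex, at 147 and 94.7 CPM (1.55; 1.01 to 2.40). Of 17 nuclear genes of oxidative phosphorylation none passed in microglial-RNA members, with medians of -0.02 and 0.01. Of 9 genes of the NADPH oxidase and antioxidant list none passed either, with medians of 0.22 and -0.02, and of 9 hypoxia and glycolysis genes only Ldha, lactate dehydrogenase A, did, lower in cortex by 1.54-fold (1.06 to 2.26). Over all members the oxidative phosphorylation list had a hippocampal median of -0.42 and 5 of 19 genes lower. The NADPH oxidase and antioxidant list had a hippocampal median of 0.36 over all members and 3 of 10 genes higher.

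**Figure D5:**
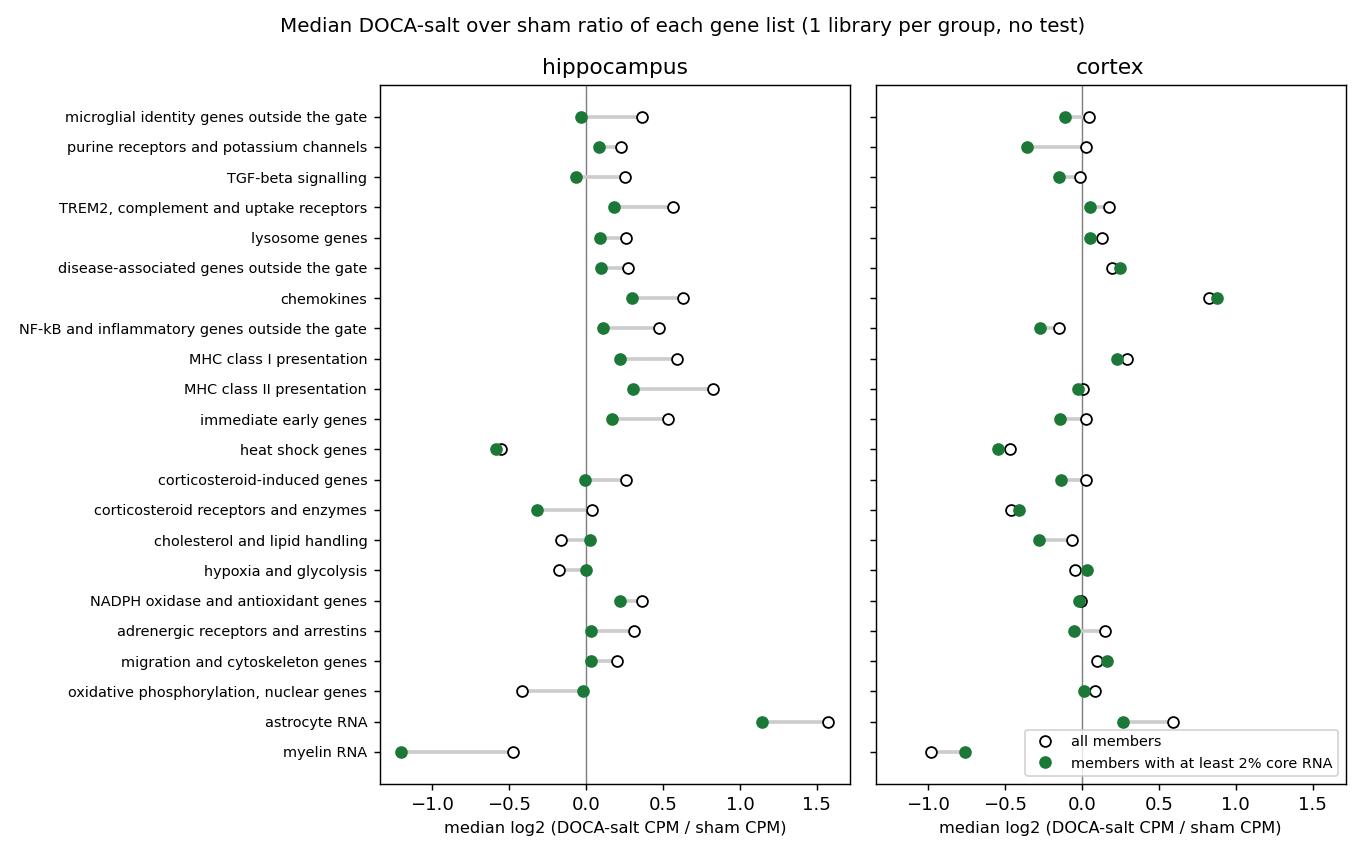
Median log2 ratio of DOCA-salt over sham CPM (x axis) of 22 gene lists (y axis) in hippocampus and cortex; filled points, microglial-RNA members; open points, all members. Heat shock genes lie near -0.5 in both tissues by either set, while most other hippocampal lists move toward 0 from all members to microglial-RNA members.

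Hippocampus and cortex were compared within each treatment. In microglial-RNA members 58 genes (2.95%) were at least 1.5-fold higher and 73 (3.71%) lower in hippocampus in the sham libraries, 64 (3.26%) and 73 (3.71%) in the DOCA-salt libraries, and 11 (0.56%) and 28 (1.42%) in both. Over all members the counts were 346 (8.47%) and 530 (13%) in sham, 379 (9.28%) and 337 (8.25%) in DOCA-salt, and 189 (4.63%) and 200 (4.89%) in both. Gadd45g, a growth arrest and stress sensor, was at 429, 477, 211 and 263 CPM, 1.81 (1.46 to 2.27) in sham and 2.04 (1.59 to 2.65) in DOCA-salt. Klf4, a transcription factor of myeloid cells, was at 1133, 1034, 773 and 696 CPM, 1.49 (1.30 to 1.71) and 1.47 (1.28 to 1.68). Mir142hg, the host transcript of a blood-lineage microRNA, had 1.57 (1.31 to 1.89) and 1.59 (1.33 to 1.90). For all 3 genes both hippocampal libraries were above both cortical ones.

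Other genes were higher in cortex. Nlrp3, the sensor of the inflammasome that matures interleukin 1 beta, was at 117, 153, 197 and 263 CPM, 1.72-fold (1.31 to 2.26) higher in cortex in sham and 1.68-fold (1.22 to 2.32) in DOCA-salt. Nfat5, the transcription factor of the response to hypertonic salt, was at 112, 150, 175 and 248 CPM, 1.66-fold (1.25 to 2.19) and 1.56-fold (1.11 to 2.18) higher. Ier3, an early response gene, was at 334, 348, 465 and 547 CPM, 1.57-fold (1.31 to 1.89) and 1.39-fold (1.14 to 1.70) higher. Trim47, a ubiquitin ligase, was 2.05-fold (1.38 to 3.05) and 1.73-fold (1.23 to 2.42) higher. Among the other microglia the hippocampus over cortex ratios of Nlrp3 were 0.647 and 0.706, the same direction, while in members with 0 of every state gene its sham log2 ratio was 0.29. Astrocyte-list RNA was also higher in cortex, at 3193 against 781 CPM in sham, and its part in these differences was not tested.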

How the data were processed

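The authors deposited 1 matrix of UMI counts per library, with 32285 genes, 11159 to 11402 barcodes and 66824217 to 70173987 UMIs. Per the submitters' processing notes, fastp, STAR, Subread and Seurat were used with GRCm38; versions, strand setting and cell filters are not given in the sources used here, so reads of overlapping and antisense genes cannot be told apart.

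Counts were summed over the members of a library and scaled to CPM; ratios carry exact 95% intervals (binomial for shares and ratios, Poisson for levels). No test was run, and genes past 1.5-fold were counted among those with at least 200 UMIs over the 4 libraries. Oligodendrocytes, astrocytes, endothelial cells and border macrophages were gated by their own markers, with at most 2 of the 8 microglial markers allowed. Slc1a2 and Slc1a3 were among the astrocyte markers. Doublets were limited by the gate alone; removal of Scrublet calls was an alternative, and it called 3.44%, 8.82%, 7.57% and 19.1% of members in the order used above, against 4.27% to 6.65% of the libraries. Each pair of libraries shared 94 to 105 barcodes, and no member was shared. Clec7a, of the disease-associated genes of the gate, was not used here. Of the 10 core microglial genes 9 are named; the other is counted in the core share and is not reported here.

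The members and gene lists were chosen with earlier results of these data known. Genes are named by rule: per tissue the 6 highest and 6 lowest ratios by the interval bound nearest to 1, the 8 per direction over both tissues and between tissues, and from each list its most counted and most different members, leaving out gate, mitochondrial, ribosomal protein, haemoglobin, immunoglobulin, sex-linked and predicted genes and genes whose level in members was under 0.2 of that in another class. Lrba, Errfi1, Ccl2, Cxcl2, Lsamp, Gm8797, Gm21860 and the genes set against the other microglia were named after their values were seen. Coordinates are GENCODE vM21 (32158 genes matched), and promoters RefSeq GRCm38.p6. Gate, depth, weight, scaling and filter alternatives were run. The ratio code was tested on simulated counts. Python 3.11.15, numpy 2.4.6, scipy 1.17.1, pandas 2.3.3 and scanpy 1.11.5 were used.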

Additional observations from a re-analysis of the deposited data

Results flagged for a closer look

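In 5 measures the 2 tissues went opposite ways between DOCA-salt and sham, with intervals that did not include 1 on either side. Of 1966 genes 14 did so, and 2 of them, Cxcl2 and Lsamp, by at least 1.5-fold in both tissues. The difference between the tissues was not tested in any of them, since each group is 1 library. The share of microglia that passed the state gate at 2000 UMIs per cell had a DOCA-salt over sham ratio of 1.22 (1.08 to 1.38) in hippocampus and of 0.797 (0.684 to 0.927) in cortex. That gate allows 1 cytokine and 1 interferon gene. Unthinned, only 6.81%, 6.80%, 3.94% and 3.74% of the same cells passed, so most that passed at 2000 UMIs exceeded a limit at full depth. Cxcl2 had ratios of 0.594 (0.394 to 0.886) and 3.73 (2.57 to 5.52) in microglial-RNA members. Lsamp, a cell adhesion gene known from neurons, had 2.73 (1.72 to 4.48) and 0.484 (0.347 to 0.667). Among the genes named by rule, Fos had 1.12 (1.07 to 1.17) and 0.781 (0.731 to 0.834), and Cst3, close to 1 in both, 0.961 (0.947 to 0.976) and 1.03 (1.01 to 1.06).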

How the results depend on the processing

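Of 18 alternative values of the DOCA-salt over sham ratio of the members' share of gated microglia, 17 lay within the counting interval of the value given, from 0.816 in hippocampus and from 0.740 to 0.970 in cortex; with each cell thinned to 2000 UMIs before the gate it was 1.16 in hippocampus. Counts of genes past 1.5-fold over all members, in the order hippocampus higher and lower (304, 226), cortex higher and lower (211, 371) and sham hippocampus over cortex higher and lower (346, 530), depended on the settings. With at most 1 of 7 other-cell markers they were 35, 53, 62, 97, 52 and 80. With 2000 UMIs per cell they were 92, 144, 89, 134, 137 and 156, and with 0 of every state gene 83, 55, 110, 164, 110 and 99. With at least 2% core RNA they were 39, 65, 70, 123, 58 and 73, and with at least 1% 57, 93, 78, 149, 73 and 90. A filter of 50 UMIs gave 1126, 685, 994, 1304, 902 and 1727, and one of 1000 UMIs 51, 49, 23, 54, 81 and 55. These filters change how many genes enter. Settings that leave out cells or UMIs can lower that number too. Over all members 4086 genes entered, and with at least 2% core RNA 1966 did. For the other settings the number is not given here, so their lower counts do not by themselves show a smaller share of genes. With at least 6 of 8 markers 122 were higher in hippocampus, 90 higher and 199 lower in cortex and 301 lower in sham hippocampus over cortex; with equal weight per cell 562 were lower in cortex. The cause was not tested in the other cases.

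Of 1452 alternative values of single genes 4 changed direction on the log2 scale, and of 328 of gene lists 1 did. With at most 1 of 7 other-cell markers the chemokine list was at -0.062 in cortex in place of 0.83, and Apoe at -0.11 in place of 0.70. Nr4a1 in hippocampus was at -0.11 in place of 0.73 at 2000 UMIs per cell. With 0 of every state gene, which leaves fewer cells, Nfkbia in hippocampus was at -0.28 in place of 0.62, and Nlrp3 in sham hippocampus over cortex at 0.29 in place of -1.03. Removing Scrublet calls, 500 genes per barcode, 10% mitochondrial counts, centring and the limit on genes of other classes kept every count within 1.5 times. No paired analysis was possible because the groups compared, of 1 library each, share fewer than 2 replicate numbers, and no library could be left out of a group of 1. A fit over the 4 libraries with tissue as a term, which would leave 1 residual degree of freedom, was not run. The members' UMI counts limit rare genes most.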
